A study of Mus musculus with 8 samples.

Results

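Retinoid X receptors (RXRs) are nuclear receptors, proteins that bind DNA and switch genes in response to lipid-soluble ligands. They pair with other nuclear receptors: the liver X receptors (LXRs), which sense oxysterols, the thyroid hormone receptors, which bind triiodothyronine (T3), the retinoic acid receptors, and the peroxisome proliferator-activated receptors (PPARs), which sense fatty acids and include PPARb. Because PPARb binds DNA with an RXR, the RXR genes encode its obligate partners, and the other receptors draw on the same RXR pool. Retinoid and thyroid hormone signals are known for their role in the maturation of oligodendrocytes, the myelin-forming cells of the brain, and LXRs for the control of cholesterol export and lipogenesis. Described here is the occupancy of the genes for 3 RXRs (Rxra, Rxrb and Rxrg), 2 LXRs (Nr1h3 for LXR alpha, Nr1h2 for LXR beta), 2 thyroid hormone receptors (Thra and Thrb) and 3 retinoic acid receptors (Rara, Rarb and Rarg). These 10 genes, of 21887 protein-coding genes in the RefSeq annotation of GRCm38, were taken by symbol. A peak was assigned to a gene when its centre lay in the gene span or within 5 kb of it.

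Chromatin immunoprecipitation with sequencing had been done in 2 kinds of mouse cell. The differentiated cells were oligodendrocytes made in culture from neural stem cells (FvB/C57BL6 hybrid strain, passage 7) with ectopic, HA-tagged PPARb. Their medium held B-27, GlutaMAX-I, 100 ng/mL IGF-1 and 50 ng/mL T3, the ligand of Thra and Thrb. The targets immunoprecipitated were Qki-5 (a nuclear form of the RNA-binding protein Quaking), PPARb, the HA tag and RNA polymerase II, called Pol II below, with 1 input library for all. The isolated cells were oligodendrocytes taken from C57BL6 mouse brain with O4 beads and not cultured (passage 0), with no introduced PPARb named in the labels. They were immunoprecipitated for Qki-5 and PPARb only, against another input. All 5 libraries of differentiated cells, input included, therefore came from cells with added PPARb, and every group had 1 library. Without replicates the values are descriptions, and intervals cover counting error only.

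In differentiated cells the lists held 13270 peaks for Pol II, 30179 for Qki-5, 30042 for HA and 26406 for PPARb, and in isolated cells 8380 (Qki-5) and 1393 (PPARb). Total tags were between 12624236 and 24880851. The share of tags in peaks was 1.39%, 3.66%, 4.62% and 2.78% for these lists of differentiated cells, taken in the same order, and 0.849% (Qki-5) and 0.116% (PPARb) in the lists from isolated cells. Of 9 oligodendrocyte marker genes, 3 had a Pol II peak in differentiated cells, and the myelin genes Mag, Mog and Mobp had no peak in any list of these cells. Of 6 astrocyte markers, 4 had a Pol II peak and all 6 had Qki-5, PPARb and HA peaks in differentiated cells. In isolated cells Qki-5 peaks lay at 8 of the 9 oligodendrocyte markers and at 1 of the 6 astrocyte markers. Pol II peaks of differentiated cells also lay at 4 of 5 neuron, 0 of 5 microglia, 1 of 5 endothelial and 3 of 4 stem cell markers, and Qki-5 peaks of isolated cells at 0, 0, 4 and 2 of these. In differentiated cells 47.5% of all genes had a Pol II peak, and 61.2%, 57.3% and 60.6% a Qki-5, PPARb and HA peak. In isolated cells 35.7% of all genes had a Qki-5 peak. Among all markers Olig1 and Cldn11 had a peak in every list, and Mog, Aif1, Csf1r, Tmem119 and Kdr in none. The part of cell makeup in the values below was not tested. Peak heights are normalized tag counts, the tags of a 200 bp peak per 10000000 tags of the library as the authors scaled them. A percentile is a peak's rank within its own list, counted from the lowest, as a percent of the peaks there. Peaks of equal value share their average rank.

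Nearly all of the receptor genes carried peaks in differentiated cells, fewer carried Qki-5 peaks in isolated cells, and 1 carried PPARb there. The lists differ in length, and with each reduced to its 1391 tallest peaks Qki-5 was at 1 gene in differentiated cells and 2 in isolated cells, and PPARb at 1 gene in each. Of all genes, 7.61% and 8.72% had such a Qki-5 peak in differentiated and isolated cells, and 5.59% and 7.57% such a PPARb peak. In differentiated cells Qki-5 peaks were found at 9 of the 10 genes, where 61.2% of all genes had one. PPARb peaks were found at all 10, against 57.3% of all genes, and HA peaks at all 10, against 60.6%. Pol II peaks were found at 9 of the 10, against 47.5%. In isolated cells Qki-5 peaks were found at 6 of the 10, against 35.7% of all genes, and a PPARb peak at 1 of the 10, against 7.57%. For PPARb in differentiated cells longer genes had a peak more often. Of all genes from 50 kb to 300 kb long, 76.8% had one, against 37.1% of those under 10 kb. Thrb and Rarb span over 300 kb, a class of which 81.0% had such a peak, and Rxrb and Nr1h2 were the 2 receptor genes under 10 kb.

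**Figure D1:**
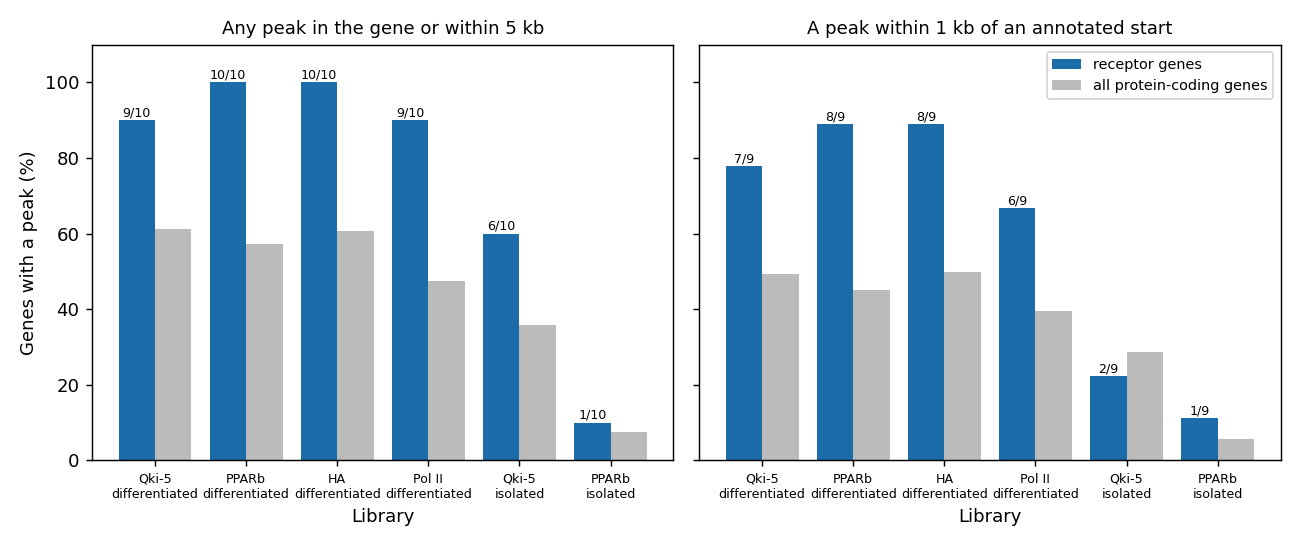
Percent of the 10 receptor genes (blue) and of all protein-coding genes (grey) with a peak in each of 6 libraries, for any peak in the gene or within 5 kb (left) and for a peak centre within 1 kb of an annotated start (right). The receptor genes stood above all genes in the 4 lists of differentiated cells. In isolated cells 6 of 10 had a Qki-5 peak, against 35.7% of all genes, and 1 of 10 a PPARb peak, against 7.57%. For start peaks in isolated cells 2 of 9 had a Qki-5 peak, against 28.6% of all genes, and 1 of 9 a PPARb peak, against 5.66%.

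Peaks at annotated starts gave a similar picture in differentiated cells. The start was taken from the RefSeq promoter table for 9 of the genes (not Thra). A Qki-5 peak lay within 1 kb of a start in 7 of the 9, where 49.4% of 17492 genes had one, and a PPARb peak in 8, against 45.2%. An HA peak lay there in 8, against 49.8%, and a Pol II peak in 6, against 39.4%. In isolated cells only Rxrb and Nr1h2 had a Qki-5 peak at a start, 2 of 9 against 28.6% of all genes, and Rxrb alone had a PPARb peak, 1 of 9 against 5.66%.

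Across the 6 lists Rxrb was the 1 receptor gene with a peak in each, as were 6.26% of all genes. Nr1h2, Nr1h3, Thra, Rara and Rarg had peaks in 5 lists, Rxra, Thrb and Rarb in 4, and Rxrg in 2. In all, the 10 genes carried 135 peaks in differentiated cells and 9 in isolated cells. Overlapping peaks merged into 63 sites, of which 25 were covered by 1 library, 21 by Qki-5, PPARb and HA together, and 12 of those 21 by Pol II of the differentiated cells as well. The tallest peak of a receptor gene was above the median of its list in 9 of 9 genes for Qki-5, 8 of 10 for PPARb, 9 of 10 for HA and 5 of 9 for Pol II in differentiated cells, and in 4 of 6 for Qki-5 in isolated cells. A gene with several peaks has more chances of a tall one, so these counts were read only as descriptions.

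**Figure D2:**
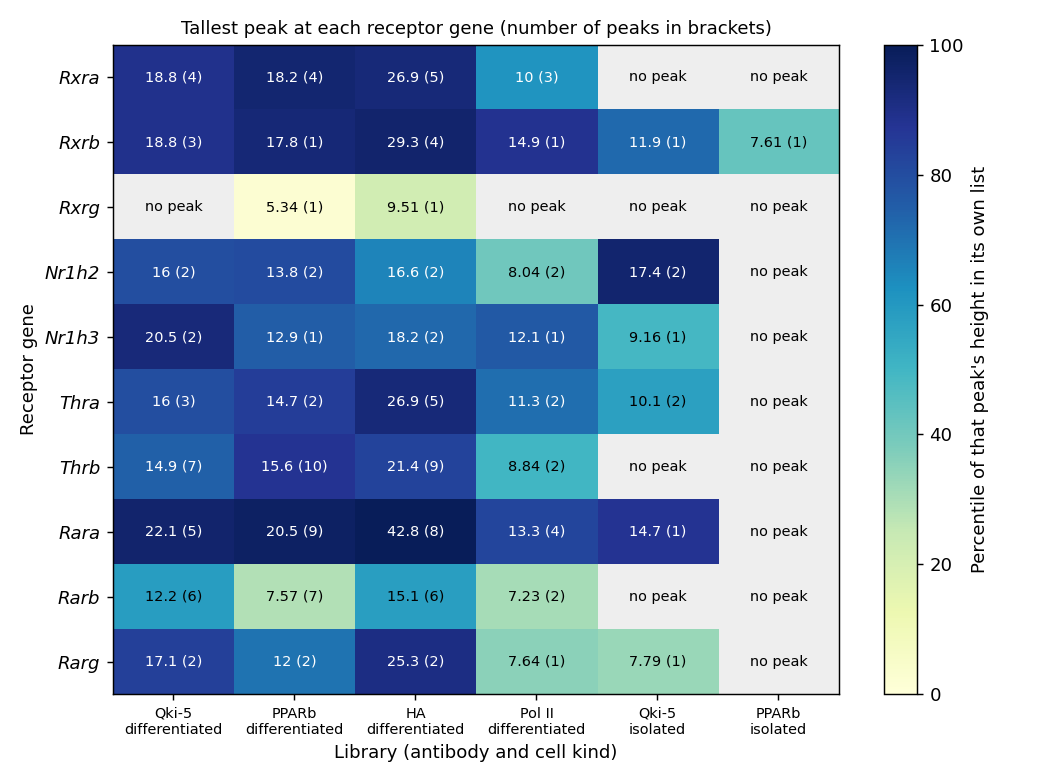
Height of the tallest peak (tags per 10000000) at each receptor gene (rows) in each library (columns), with the number of peaks in brackets; colour gives the percentile of that height in its own list, and grey marks no peak. Rara held the darkest cells in differentiated cells, with 42.8 for HA and 20.5 for PPARb, Rxrg the palest, with 5.34 for PPARb, and only Rxrb had a PPARb peak in isolated cells.

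Among the RXR genes, Rxrb (chr17:34031812-34038403, + strand, 6.59 kb) was the one occupied in both kinds of cell. RXR beta is the broadly expressed RXR. Its start region is shown because it held the sole PPARb peak of isolated cells at these genes; capitals mark the bases of the promoter window inside that peak (RefSeq, GRCm38.p6, chr17:34031562-34031861, + strand, 250 bases before to 50 after the start).
Rxrb: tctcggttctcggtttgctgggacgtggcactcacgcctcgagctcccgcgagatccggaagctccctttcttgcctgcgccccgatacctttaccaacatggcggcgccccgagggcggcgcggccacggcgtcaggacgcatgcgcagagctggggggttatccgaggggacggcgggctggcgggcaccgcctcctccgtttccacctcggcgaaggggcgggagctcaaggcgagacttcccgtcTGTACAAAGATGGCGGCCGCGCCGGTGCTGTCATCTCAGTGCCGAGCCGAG
In differentiated cells the peaks over this start had heights of 18.8 for Qki-5 (95% Poisson interval 13.0 to 26.3), 17.8 for PPARb (12.7 to 24.2) and 14.9 for Pol II (10.5 to 20.5). In isolated cells they were 11.9 for Qki-5 (7.78 to 17.4) and 7.61 for PPARb (4.16 to 12.8), the last resting on 14 tags. The PPARb peak ranked 1546 of 26406 in differentiated cells and 691 of 1393 in isolated cells. By fold over input it stood at percentile 73.5 in differentiated cells and, at 18.6-fold, at percentile 94.2 in isolated cells. All of these centres lay between 7 and 144 bp after the start. The HA peak was the tallest here at 29.3 (20.6 to 40.4), but it began 46 bp beyond the end of the PPARb peak, with its centre 163 bp before the second annotated start. The start of Slc39a7, a zinc transporter gene, lies close by, 251 bp from the centre of the shared site, so the site cannot be given to one of these genes. The other 3 sites in the window, with HA peaks of 21.4, 10.3 and 14.3, lay nearer to the starts of H2-Ke6 or Col11a2.

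Rxra (chr2:27676445-27763319, + strand, 86.9 kb) carried 16 peaks, all of them in differentiated cells. RXR alpha is the RXR best known from liver and skin. At its first start, a promoter with more CpG dinucleotides than 99.7% of promoters, heights were 18.8 for Qki-5 (13.0 to 26.3), 11.1 for PPARb (7.20 to 16.4), 26.9 for HA (18.7 to 37.6) and 10 for Pol II (6.50 to 14.8). Its tallest PPARb peak lay instead within the gene at chr2:27699659-27699891, at 18.2 (13.1 to 24.8), with 17.7 for Qki-5, 26.1 for HA and 5.63 for Pol II. That site is 9.51 kb before the second start. By fold over input its PPARb peak stood at percentile 56.5, below the PPARb peak at the first start, at 80.4. A site near the end of the gene (chr2:27758399-27758795) had 18.3 for Qki-5, 11.6 for PPARb, 5.22 for Pol II and 16.6 for HA. All 4 PPARb peaks of Rxra overlapped a Qki-5 peak and an HA peak. Rxra had a percentile in 4 of the 6 lists. To compare receptors over all 6, a list without a peak was placed at the bottom of the percentile scale. On that basis Rxra was nearest, among 38 other nuclear receptors, to Nr1d1, Nr2f2 and Esrrg (Euclidean distances of 4.71, 13.6 and 23.6 percentile points). Like Rxra, these genes had no peak in isolated cells, so those lists added no distance.

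Rxrg (chr1:167598362-167639623, + strand, 41.3 kb) had the fewest peaks. RXR gamma is the RXR studied in oligodendrocyte lineage cells and remyelination. It had 1 site, with 5.34 for PPARb (2.76 to 9.33) and 9.51 for HA (4.91 to 16.6) in differentiated cells, each on 12 tags, and no Qki-5 or Pol II peak and none in isolated cells. The PPARb peak stood at percentile 2.08 of its list by height and 48.9 by fold over input. The site lay over the second annotated start, shown because both peaks cover its 2 receptor hexamers; capitals mark hexamers AGTTCA and AGGTCA, and 43.7% of 32851 promoters of this length hold at least 1 of the hexamers searched (AGGTCA or AGTTCA or GGGTCA or GGTTCA, both strands). The window is chr1:167618015-167618314, + strand.
Rxrg: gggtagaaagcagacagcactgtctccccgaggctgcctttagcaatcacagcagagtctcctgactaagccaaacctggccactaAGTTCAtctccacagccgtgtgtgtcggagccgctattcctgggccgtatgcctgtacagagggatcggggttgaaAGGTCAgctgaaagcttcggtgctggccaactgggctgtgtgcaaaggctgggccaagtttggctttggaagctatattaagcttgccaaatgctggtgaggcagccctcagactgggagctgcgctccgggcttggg
Rxrg had a percentile in 2 of the 6 lists, and the others were placed at the bottom of the scale as for Rxra. The receptors then nearest to Rxrg were Nr2e3, Nr5a2 and Nr1h4 (2.08, 7.11 and 18.8), genes with few peaks too. Nr2e3 and Nr5a2 had a peak in the HA list alone, so their closeness largely reflects shared absence of peaks. The distance to Nr2e3 was just the PPARb percentile of Rxrg, as both had the HA percentile 21.7. The receptors nearest to Rxrb were Nr2f6, Nr3c1 and Nr2c2, at larger distances of 32.3, 44.0 and 44.6.

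The windows of both LXR genes held peaks in both kinds of cell, over the annotated start for Nr1h2 but not for Nr1h3. Nr1h2 (chr7:44549616-44553968, − strand, 4.35 kb) encodes LXR beta, the LXR known for its part in the brain. At its start it had 16 for Qki-5 (10.7 to 23.0), 13.8 for PPARb (9.37 to 19.6), 16.6 for HA (10.3 to 25.4) and 8.04 for Pol II (4.91 to 12.4) in differentiated cells. In isolated cells the Qki-5 peak there was 17.4 (12.3 to 23.9), rank 361 of 8380. The intervals of the 2 Qki-5 peaks overlapped, and the peaks stood at percentile 79.5 of their list in differentiated cells and 95.3 in isolated cells. By fold over input they stood at percentiles 45.1 and 86.9. This was the one receptor gene in the top 10% of the isolated-cell Qki-5 list by height. The promoter is shown because the 5 peaks meet on it; capitals mark the 117 bases that all 5 cover (chr7:44553916-44554215, − strand).
Nr1h2: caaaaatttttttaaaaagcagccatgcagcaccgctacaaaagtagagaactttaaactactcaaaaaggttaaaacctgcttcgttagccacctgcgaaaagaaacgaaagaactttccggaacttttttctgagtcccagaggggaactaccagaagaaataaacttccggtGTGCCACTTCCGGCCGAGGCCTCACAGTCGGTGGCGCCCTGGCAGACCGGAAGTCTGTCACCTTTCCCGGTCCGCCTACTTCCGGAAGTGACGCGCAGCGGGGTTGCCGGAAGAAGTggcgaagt
The window holds 8 matches to CCGGAA, the core letters of ETS factor motifs (both strands, some overlapping), and 14.9% of promoters hold at least 1. This motif was chosen after the sequence had been seen. No hexamer of the receptor kind was found in it. A site 5.10 kb after the Nr1h2 start, with 14.9 for Qki-5, 9.35 for PPARb, 5.63 for Pol II and 11.1 for HA in differentiated cells and 10.1 for Qki-5 in isolated cells, lay 54 bp from the start of Pold1, a DNA polymerase gene.

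Nr1h3 (chr2:91184061-91202829, − strand, 18.8 kb) encodes LXR alpha, the LXR known from liver and macrophages. None of its 3 sites lay at either of its 2 starts in the promoter table. The tallest, at chr2:91202516-91202971, had 20.5 for Qki-5 (14.4 to 28.2), 12.9 for PPARb, 12.1 for Pol II and 17.4 for HA in differentiated cells and 9.16 for Qki-5 in isolated cells. It covers the 5′ end of the Nr1h3 span, with the centres of its Qki-5, PPARb and HA peaks of differentiated cells 41, 42 and 24 bp from that end and that of isolated-cell Qki-5 19 bp from it. It is 7.73 kb before the nearer start in the table. By fold over input its Qki-5, PPARb and HA peaks of differentiated cells stood at percentiles 42.9, 38.8 and 24.4. Its Pol II peak stood at 96.6 and its isolated-cell Qki-5 peak at 59.6. The start of Acp2, a lysosomal phosphatase gene, lies 64 bp from the site's centre, so the site cannot be given to one of these genes. The other 2 sites were an HA peak of 18.2 and a Qki-5 peak of 9.96 at the start of Madd.

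**Figure D3:**
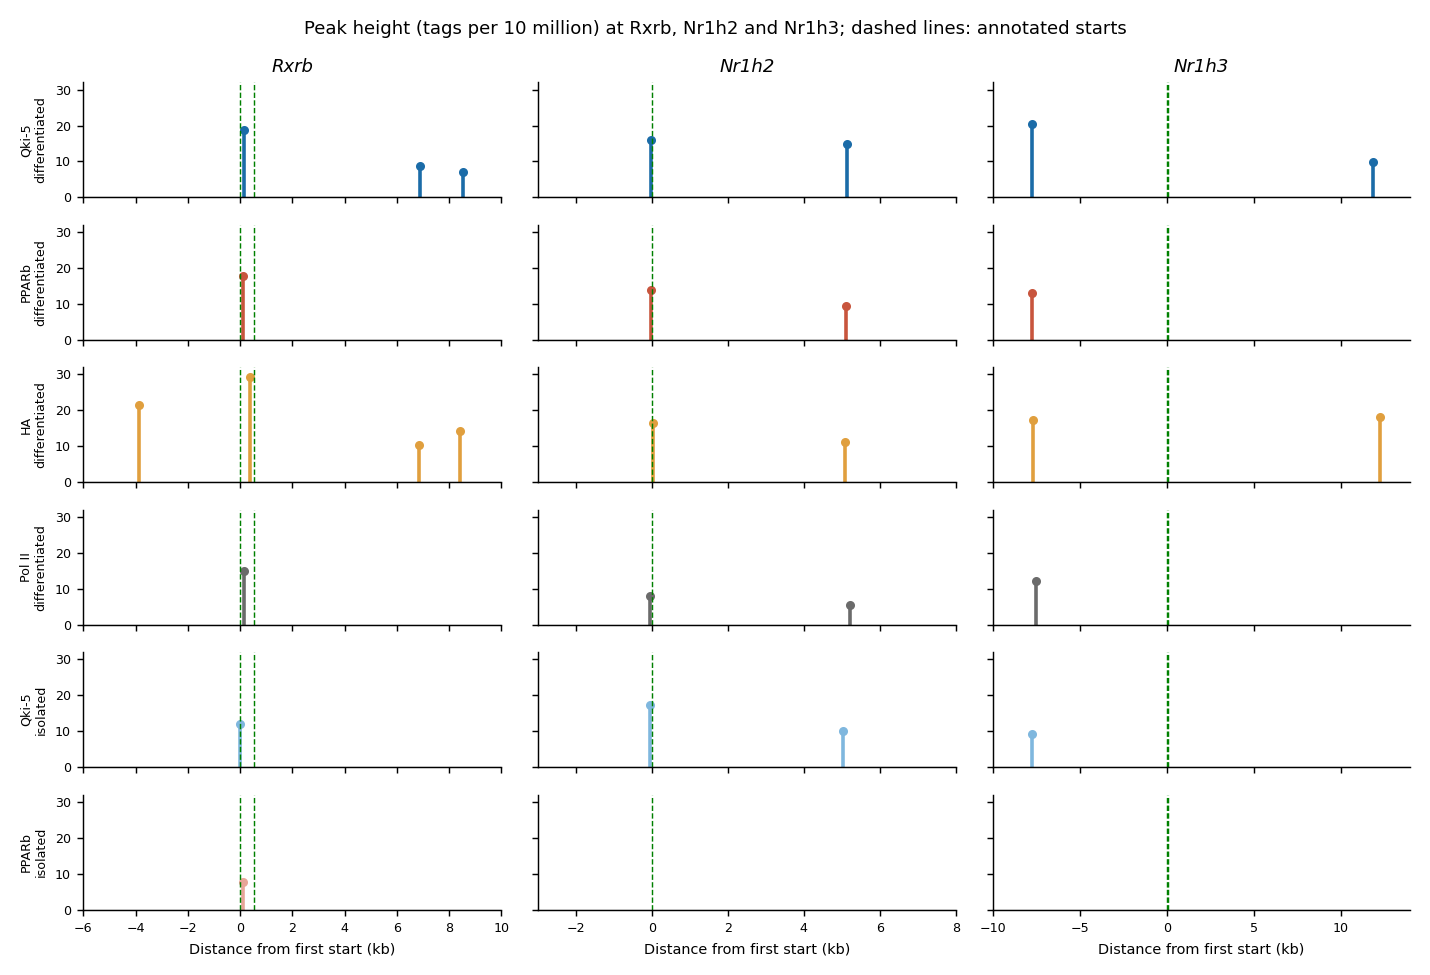
Heights of peaks (tags per 10000000, vertical axes) against distance of the peak centre from the first annotated start (kb along the gene) at Rxrb, Nr1h2 and Nr1h3, with 1 row per library and dashed lines at annotated starts. Peaks sit on the starts of Rxrb and Nr1h2 in both kinds of cell, with 17.8 against 7.61 for PPARb at Rxrb in differentiated and isolated cells, and none sits on the Nr1h3 starts.

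Of the thyroid hormone receptor genes, Thra was occupied in both kinds of cell and Thrb in differentiated cells alone. Thra (chr11:98740776-98769006, 28.2 kb) encodes the thyroid receptor that prevails in brain. A site at chr11:98750723-98750961 had 13.8 for Qki-5 and 26.9 for HA in differentiated cells and 10.1 for Qki-5 in isolated cells (6.32 to 15.3), while a PPARb peak of 14.2 lay apart from it at chr11:98751058-98751258. By fold over input, the Qki-5 and HA peaks of differentiated cells stood at percentiles 3.00 and 26.3. The isolated-cell Qki-5 peak stood at 65.8 and the PPARb peak at 88.4. Near the lower-coordinate end of the gene, at chr11:98741769-98742038, were an HA peak of 21.4 (14.1 to 31.1) and a Pol II peak of 11.3 in differentiated cells, and a Qki-5 peak of 8.24 in isolated cells, with no Qki-5 or PPARb peak of differentiated cells. These HA, Pol II and isolated-cell Qki-5 peaks stood at percentiles 47.2, 15.1 and 0.621 by fold over input, the last at 4.03-fold. The 1 site of Thra with Qki-5, PPARb and HA peaks (16, 14.7 and 25.3) lay in the neighbouring Nr1d1, whose product REV-ERB alpha is a circadian repressor, 1.40 kb from its start. Its peaks stood at percentiles 65.6, 66.2 and 73.0 by fold over input, in the same order.

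Thrb (chr14:17659225-18040097, + strand, 381 kb) encodes the thyroid receptor known from liver, pituitary and inner ear. It held 28 peaks, all in differentiated cells. Its 10 PPARb peaks were a number reached by 0.503% of all genes, and its 9 HA and 7 Qki-5 peaks by 1.08% and 1.90%, though it is among the long genes. At its first start heights were 12.7 for Qki-5, 13.4 for PPARb, 21.4 for HA (14.1 to 31.1) and 8.84 for Pol II (5.54 to 13.4). These peaks also lie inside LOC115488350, whose start is 488 to 785 bp away. The tallest PPARb peak lay 70.3 kb into the gene (chr14:17731140-17731360) at 15.6 (10.8 to 21.7), with 14.4 for Qki-5 and 19.8 for HA. By fold over input the PPARb, Qki-5 and HA peaks of this site stood at percentiles 33.6, 24.4 and 43.5. Those at the first start stood higher, at 98.2, 96.4 and 88.7 in the same order. The only other site with Pol II, at chr14:17827462-17827809, had 14.9 for Qki-5, 12 for PPARb, 7.64 for Pol II and 14.3 for HA. The first promoter is shown for its hexamer AGGTCA, in capitals, which lies in the HA peak and outside the others (chr14:17660710-17661009, + strand). AGGTCA itself was found in 16.3% of promoters.
Thrb: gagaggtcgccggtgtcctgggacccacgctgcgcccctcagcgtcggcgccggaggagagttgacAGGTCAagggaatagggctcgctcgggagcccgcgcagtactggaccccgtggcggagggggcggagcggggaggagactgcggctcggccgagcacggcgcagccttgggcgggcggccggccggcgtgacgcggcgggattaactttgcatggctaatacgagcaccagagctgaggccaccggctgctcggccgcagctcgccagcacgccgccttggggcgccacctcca

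Rara had the tallest Qki-5, PPARb and HA peaks of differentiated cells among these genes. Rara (chr11:98927800-98974942, + strand, 47.1 kb) encodes retinoic acid receptor alpha, the widely expressed form. Its 12 sites held 26 peaks in differentiated cells and 1 in isolated cells. At chr11:98951467-98951783, inside the gene and 11.9 kb after the nearest upstream start, HA reached 42.8 (32.1 to 55.8), rank 165 of 30042. PPARb there was 20.5 (15.0 to 27.3), rank 667 of 26406. Qki-5 was 22.1 (15.8 to 30.1), rank 1265 of 30179, and Pol II was 13.3 (9.13 to 18.6), rank 2264 of 13270. No other site of the 10 genes was as tall for PPARb, HA or Qki-5. By fold over input the HA peak was at percentile 88.7, the Qki-5 peak at 77.0 and the PPARb peak at 63.0. At the first start Qki-5, PPARb and HA were lower, at 8.85, 10.2 and 19.0, and there was no Pol II peak. These start peaks also lie inside Gm46294, as does the isolated-cell peak below. In isolated cells Rara had no peak at either place. Its Qki-5 peak of 14.7 (10.03 to 20.7) lay at chr11:98942026-98942226, where no list of differentiated cells had a peak, and ranked 958 of 8380. By fold over input, which was 5.11, that peak stood at percentile 24.8 of its list.

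**Figure D4:**
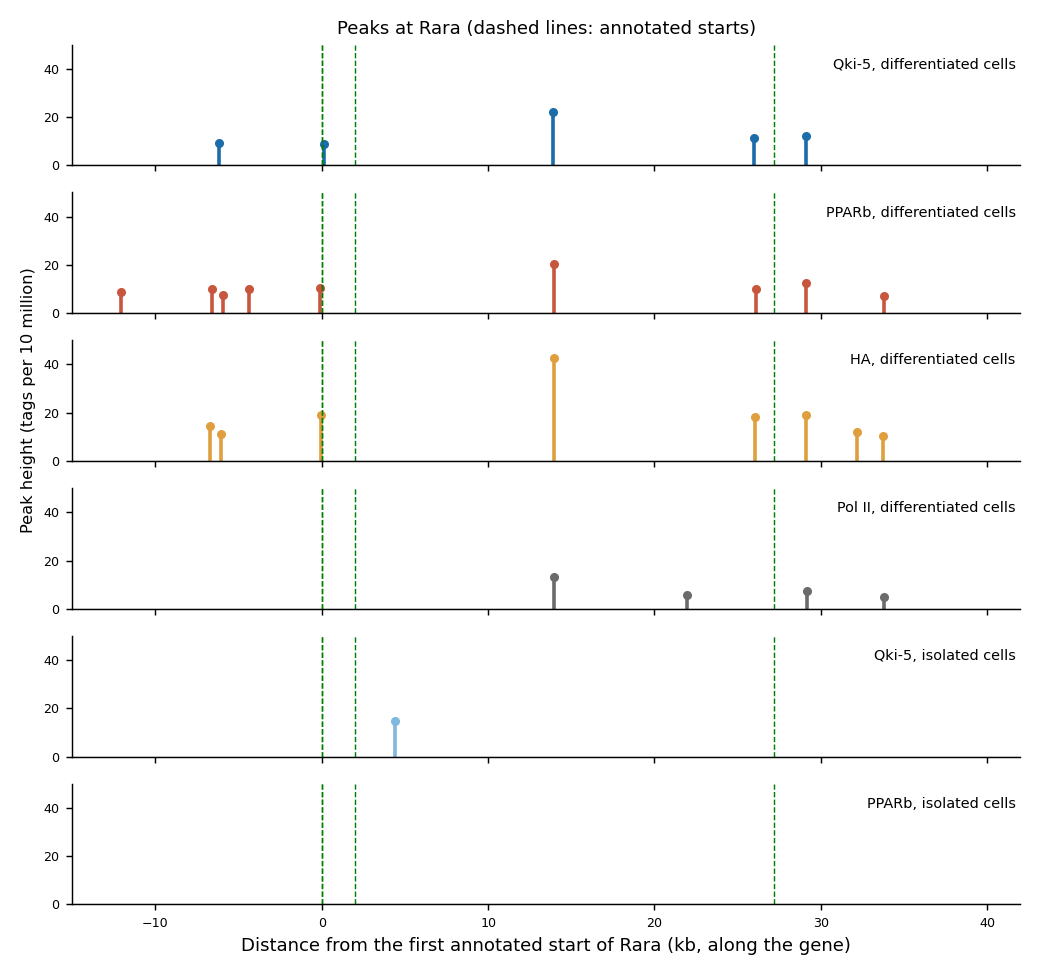
Heights of peaks (tags per 10000000, vertical axes, 1 row per library) against distance of the peak centre from the first annotated start of Rara (kb along the gene), with dashed lines at annotated starts. The 4 lists of differentiated cells share their tallest peak inside the gene (42.8 for HA), and the Qki-5 peak of isolated cells (14.7) stands apart from all of them.

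Rarb (chr14:16430839-17082331, − strand, 651 kb) encodes retinoic acid receptor beta, itself a textbook target of retinoic acid through a direct repeat of receptor hexamers in its promoter. Its 21 peaks were all from differentiated cells and were spread thin: 10 of its 14 sites were covered by 1 library. Heights at its start were 8.30 for Qki-5, 7.57 for PPARb (4.41 to 12.1), 11.9 for HA and 7.23 for Pol II (4.29 to 11.4). All 4 were below the medians of their lists, which were 11.1, 9.79, 13.5 and 8.84 in the same order. By fold over input the Qki-5, PPARb and HA peaks were above their medians, at percentiles 89.3, 67.6 and 91.1, and Pol II was at 31.9. The promoter is shown for its direct repeat, GGTTCA and AGTTCA with 5 bases between, in capitals (chr14:16575427-16575726, − strand). Direct repeats of any of the hexamers searched, 5 bases apart, were found in 32 of 32851 promoters (0.0974%) and in no other promoter of these genes. The pair GGTTCA and AGTTCA was not counted by itself.
Rarb: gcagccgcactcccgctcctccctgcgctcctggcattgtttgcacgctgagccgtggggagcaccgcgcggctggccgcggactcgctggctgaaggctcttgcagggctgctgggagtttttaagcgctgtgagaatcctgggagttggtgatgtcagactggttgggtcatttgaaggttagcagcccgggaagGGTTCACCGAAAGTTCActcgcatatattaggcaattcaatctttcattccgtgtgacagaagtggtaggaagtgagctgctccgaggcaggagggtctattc
The repeat lies 53 to 37 bases before the start, at chr14:16575513-16575529, inside the PPARb peak. The HA peak ended 7 bp short of it and the Qki-5 peak 9 bp short, while the Pol II peak began 41 bp beyond it. Such distances are small beside the 200 bp set as the width of every peak, and whether the repeat was bound was not tested. Direct repeats with 0 to 4 bases between were found in no promoter of the 9 genes matched.

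Rarg (chr15:102234938-102257522, − strand, 22.6 kb) encodes retinoic acid receptor gamma, known from skin and skeleton. Its main site, at chr15:102247010-102247236 and 0.62 kb before a start within the gene, had 17.1 for Qki-5 (11.7 to 24.3), 12 for PPARb, 25.3 for HA (17.3 to 35.8) and 7.64 for Pol II in differentiated cells. A site next to it (chr15:102247613-102247909) had 12.2 for Qki-5 and 18.2 for HA in differentiated cells and 7.79 for Qki-5 in isolated cells (4.54 to 12.5), and no PPARb peak. A low PPARb peak of 5.79 stood alone at the outer start.

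Co-occupancy was counted over peaks. In differentiated cells 21 of 34 Qki-5 peaks at the receptor genes overlapped a PPARb peak by 1 bp or more, 61.8% (exact interval 43.6 to 77.8), against 65.1% of the whole Qki-5 list. At least 1 such shared peak was found at 9 of the 10 genes, where 51.3% of all genes had one. In the other direction 21 of 39 PPARb peaks overlapped a Qki-5 peak, 53.8% (37.2 to 69.9), against 74.4% of the whole PPARb list. Peaks of 1 gene are not independent, so this interval is too narrow for a comparison. Of the 18 PPARb peaks without Qki-5, 6 were at Rara, 5 at Rarb and 4 at Thrb, while all PPARb peaks of Rxra, Rxrb, Nr1h2 and Nr1h3 overlapped one. HA, the tag on the introduced PPARb, overlapped 29 of the 39 PPARb peaks, 74.4% (57.9 to 87.0), against 73.5% of the whole list, and the centres of such pairs were a median of 54 bp apart. The 8 PPARb peaks that met no other list had a median height of 7.34, against 10.2 for the 31 shared ones. They made up 20.5% of the PPARb peaks at these genes, against 11.8% of the whole list. Of the 8 Qki-5 peaks in isolated cells, 6 overlapped a Qki-5 peak of differentiated cells, 75.0% (34.9 to 96.8), against 69.5% of that list.

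Other genes of these pathways were counted in the same way. Of 9 further RXR partners, 8 had a PPARb peak in differentiated cells and 2 in isolated cells, where 57.3% and 7.57% of all genes had one. Those 2 were Ppard, the gene for PPARb itself, with 14.2 and 6.53 in differentiated and isolated cells, and Nr1i3 (CAR, a xenobiotic sensor), with 8.46 and 7.61. Ppara, the fatty acid sensor of liver, had the tallest PPARb peak of that list in differentiated cells, 16.9. The pregnane receptor gene Nr1i2 had no peak in any list. Of 29 further nuclear receptors, 19 had a PPARb peak in differentiated cells, a share near the 57.3% of all genes, and 3 in isolated cells (Nr2f6, Nr3c1 and Nr6a1, which had a peak in each list). The tallest in differentiated cells were at Rora and Esrrg, 22.3 and 18.2. Nr0b1, Nr0b2, Hnf4a, Hnf4g, Esr2 and Pgr had no peak.

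Of 14 genes of retinoid supply and response, 8 had a PPARb peak in differentiated cells, against 57.3% of all genes, and 0 had one in isolated cells, against 7.57%. The tallest was at Dhrs3, a retinaldehyde reductase induced by retinoic acid, with 21.8 for PPARb and 23.0 for HA. The next, of equal height at 14.2, were at Rdh11 and the retinoic acid synthesis gene Aldh1a1. Crabp1, Crabp2, Cyp26a1 and Lrat, which bind, degrade or store retinoids, had no peak in any list. Of 11 genes of thyroid hormone supply and response, 5 had a PPARb peak in differentiated cells and 0 had one in isolated cells. The tallest were at Slc7a5, an amino acid transporter that also carries thyroid hormone (16), and Klf9, a T3-induced transcription factor (12.9). The deiodinase genes Dio1, Dio2 and Dio3, and Crym, a cytosolic T3 binder, had none in any list. Of 10 LXR targets, 7 had a PPARb peak in differentiated cells and 2 in isolated cells. These 2 were Lpcat3, a phospholipid remodelling enzyme (22.3 and 7.07), and Srebf1, the master gene of lipogenesis (16.9 and 8.16). Lpcat3 also had an HA peak of 88.7, taller than any at the receptor genes. The sterol exporters Abcg5 and Abcg8 had no peak in any list.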

How the data were processed

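The submitters' processing notes name HOMER 4.10.1, Bowtie 1.2.2 and the build mm10, besides SAMtools 1.8, Trim Galore 0.4.4 and bcl2fastq 2.19.1.403. Per the file headers the authors ran HOMER findPeaks in its factor style. The false discovery rate was 0.001, and a peak had to exceed its input at least 4-fold with a Poisson p of 0.0001 and the local 10000 bp at least 4-fold. Peak height is a signal, the normalized tag count, which the authors give per 10000000 tags. The folds over input and over local background are ratios deposited by the authors. Per the file headers, the word merge stands in the names of 2 tag directories (Qki-5 of differentiated cells, input of isolated cells), with no further detail. A gene without a peak is one where no position passed these thresholds.

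Peaks were matched to RefSeq genes and promoters of GRCm38.p6, whose coordinates are those of mm10, with Python 3.11.15, pandas 2.3.3, numpy 2.4.6, scipy 1.17.1 and matplotlib 3.10.9. All 10 symbols matched, and 9 had promoter entries (18 in all). Peak tag counts were recovered from the deposited values as height times total tags, rounded, and given exact Poisson intervals; shares have exact Clopper-Pearson intervals, both at 95%. Assignment was tested on simulated peaks. The genes, the lists of pathway and marker genes and the tests were chosen with earlier results of these data known. Named beside the 10 genes are list genes with peaks in all lists or in none, the 2 with the tallest differentiated-cell PPARb peak in each pathway list, the nuclear receptors nearest to each RXR gene, and neighbours that share a peak; some list genes are not reported here by name. Alternatives tried were the window, the input fold, equal list lengths, start peaks alone and rank by fold over input.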

Additional observations from a re-analysis of the deposited data

How the results depend on the processing

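With 1 library per group nothing could be left out, and no paired analysis was possible because no group had a second library. A window of 20 kb raised the genes with an isolated-cell PPARb peak to 2, against 1 within 5 kb (11.3% of all genes, against 7.57%). Peaks at least 8-fold over input left 3 of 10 genes with isolated-cell Qki-5, against 6 (14.2% of all genes, against 35.7%). Such peaks put the Qki-5 and PPARb overlap in differentiated cells at 79.2%, against 61.8% (whole list 56.1%, against 65.1%). With each list reduced to its 1391 tallest peaks, Qki-5 remained at 1 gene, PPARb at 1, HA at 2 and Pol II at 0 in differentiated cells, and Qki-5 at 2 in isolated cells. The shares of all genes were 7.61%, 5.59%, 5.66%, 7.83% and 8.72% in the same order. The overlap was then 100% of 1 peak, against 34.7% of the whole reduced list. The counts thus changed with list length, and occupancy below the peak caller's thresholds was not detectable at its depth. At starts alone isolated-cell Qki-5 was at 2 of 9 genes, against 28.6% of all genes with an annotated start. The overlap there was 85.7%, 6 of 7 peaks (exact interval 42.1 to 99.6). For the whole list it was counted only over peaks at any place, 65.1%. Without peaks nearer to another gene's start in the promoter table, added after the data were seen, counts were 8, 9, 9 and 8 in differentiated cells and 5 and 1 in isolated cells. Ranked by fold over input in place of height, 17 of 45 tallest-peak percentiles moved outside their counting interval.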
